A study of Drosophila melanogaster with 4 samples.

Results

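A set of 126 transcripts that were at least 4-fold brighter in grhIM embryos than in wild-type embryos, while measured in both genotypes, is described here. The array held 14755 targets named by a FlyBase transcript accession, and the brightest probe of each stood for it. Of these, 12505 were well above background on all 4 arrays and are called measured transcripts below. A measured transcript entered the set if its lower grhIM array was at least 1.5 above its higher wild-type array and its grhIM mean was at least 2 above its wild-type mean. Both limits are on the log2 scale, where 2 is 4-fold. The 126 transcripts that met both were 1.01% of the measured ones, and they are called the rising transcripts and ranked from 1, the largest difference. The members were thus chosen by the processed signals of these same 4 arrays, and every genotype difference within it is given as a description, with no test.

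Grainy head (GRH) is a transcription factor of the epidermis and other barrier epithelia of the fly. It is known for activating genes that build and harden the cuticle and genes that repair the barrier after a wound. Transcripts that are more abundant when GRH is missing can come from many cell types of a whole embryo, and nothing in these arrays separates direct from indirect changes.

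Embryos homozygous for grhIM (+; cn, grhIM, bw, sp; +) were compared with wild-type embryos (y; cn, bw, sp; +). Both strains therefore carried cn, bw and sp, and y was present in the wild-type strain alone. In grhIM a stop codon interrupts the sequence for the DNA-binding domain, and homozygotes were picked as embryos without the fluorescent CKG balancer. All embryos developed at 25°C to late stage 16 or early stage 17, before hatching, and were whole, so that more cells of a type and more RNA per cell cannot be told apart. Each genotype had 2 replicates, each a pool of about 500 embryos. The paper reports that embryos were collected in duplicate. The sources used here do not say whether the replicates came from separate crosses, so the spread between them may be partly technical. The 4 arrays lay on 1 slide, at a different position each, so that array position and genotype cannot be told apart either.

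Levels are log2 processed signals, which are background-subtracted by the scanner software, minus the median over all gene probes of the same array. A level of 0 is therefore the array's median. The share of probes well above background lay between 75.9% and 83.1% over the 4 arrays, and no spot was saturated. The median processed signal of the gene probes lay between 356 and 404. The target named as grh had levels of 1.13 and 1.31 in grhIM and of 0.17 and 0.35 in wild-type. By RT-PCR, the paper found grh transcripts in grhIM embryos at about the wild-type level. Since the lesion is a stop codon, the grh levels do not check the labels. The gene grh was the 1 gene of the 9 cell-type marker lists that could be measured by name, so the makeup of the embryos could not be checked by markers.

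No rising transcript was given a gene name, because the files hold accessions alone and the RefSeq table used here paired none of the 126 with a symbol. The paper lists misregulated genes of these same arrays by name with their fold changes. Those genes were not matched to the rising transcripts here. Rising transcripts are therefore described by rank, and the accession is printed for only 2 of them, the one with the largest difference and the brightest other one in grhIM.

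The genotype difference of the rising transcripts ran from 2.00 to 8.87, with a median of 2.66, where the median over all 12505 measured transcripts was 0.03. In linear terms the median was 6.32-fold with a lower quartile of 4.73-fold. Most of the set lay close to its lower limit, as 81 transcripts (64.3%) differed by less than 8-fold. A difference of at least 16-fold was measured for 16 transcripts and one of at least 32-fold for 8. The gap between the lower grhIM and the higher wild-type array was at least 3 for 35 transcripts. Taken by itself, the gap limit was met by 169 measured transcripts (1.35%) and the difference limit by 129 (1.03%).

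**Figure D1:**
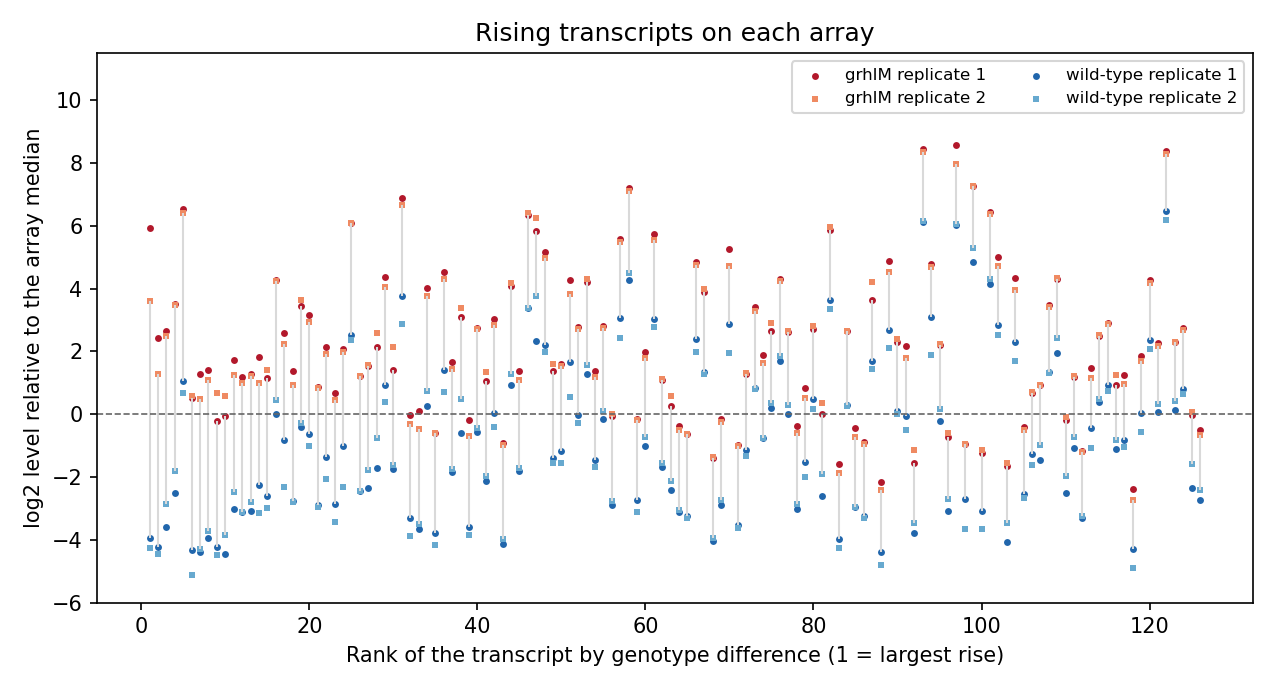
Levels of the 126 rising transcripts on each of the 4 arrays (log2, relative to the array median, which is the dashed line), in order of the genotype difference. Red points are the grhIM arrays, blue points the wild-type arrays, and each grey line joins the lower grhIM to the higher wild-type value, a gap of 1.56 to 7.54.

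The largest difference belonged to FBtr0073062. It read 5.94 and 3.61 in the grhIM pools, against -3.93 and -4.26 in the wild-type pools, a difference of 8.87, or 468-fold. The processed signal went from 23.5 and 21.0 in wild-type, near the dimmest signal accepted as above background, to 21921 and 4692 in grhIM. Both grhIM pools were far above both wild-type pools, but they differed from each other by more than 4-fold. When either grhIM replicate was left out, the other probe of this transcript became the brightest and stood for it. The difference on that probe was 4.85 without the first grhIM replicate and 6.95 without the second. That other probe read 4.07 and 1.97 in grhIM against -2.90 and -2.86 in wild-type, so on it too the first grhIM pool was the higher.

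The transcript of rank 2 also differed between the grhIM pools, with levels of 2.41 and 1.26 there and -4.25 and -4.45 in wild-type. The first grhIM replicate was thus the higher one for both leading transcripts. The transcript of rank 3 was even between the grhIM pools, at 2.66 and 2.49, against -3.60 and -2.87 in wild-type. Rank 4 had levels of 3.50 and 3.46 in grhIM and -2.52 and -1.82 in wild-type, and its second probe gave a difference of 5.97 beside 5.65 for the first.

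Rank 5 stood apart among the leading transcripts because it was already above the array median in wild-type. Its levels were 6.52 and 6.40 in grhIM and 1.07 and 0.68 in wild-type. The difference was 5.59, or 48.0-fold, and its second probe gave 5.57. The transcripts of ranks 6, 7 and 8 were under -3 on both wild-type arrays and between 0.47 and 1.42 in grhIM.

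The brightest rising transcript in grhIM was FBtr0301737, of rank 93. It was measured at 8.45 and 8.35 in grhIM and at 6.12 and 6.16 in wild-type, a difference of 2.26. Its wild-type signal of 24776 and 28934 was high, and its replicates were nearly equal. Ranks 97 and 122 were as bright, with wild-type means above 6 and grhIM means above 8, though the grhIM replicates of rank 97 were farther apart, at 8.58 and 7.97.

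The rising transcripts were mostly dim in wild-type embryos. The rule itself favours this, since it asks for a wild-type level at least 4-fold under that in grhIM. Their median wild-type level was -1.23, against 2.62 over all measured transcripts, and 89 of the 126 (70.6%) lay in the lowest of 4 bins of wild-type level, each with an equal share of the measured transcripts. In the next 3 bins there were 24, 8 and 5. In grhIM their median level was 1.81, still below the 2.60 of all measured transcripts, and the 4 bins of grhIM level held 32, 44, 27 and 23 of them. The median percentile among measured transcripts was 13.4 in wild-type and 38.9 in grhIM.

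By where they started and ended, 46 rising transcripts were below the array median on both wild-type arrays and above it on both grhIM arrays. Their median difference was 3.52. Another 45 were above the median in wild-type already, with a median difference of 2.49, and 25 stayed below it in grhIM, with a median difference of 2.36. The other 10 had replicates on both sides of the median in a genotype. None of the 126 was among the 500 brightest of the 12505 measured transcripts in wild-type, and 4 were in grhIM.

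**Figure D2:**
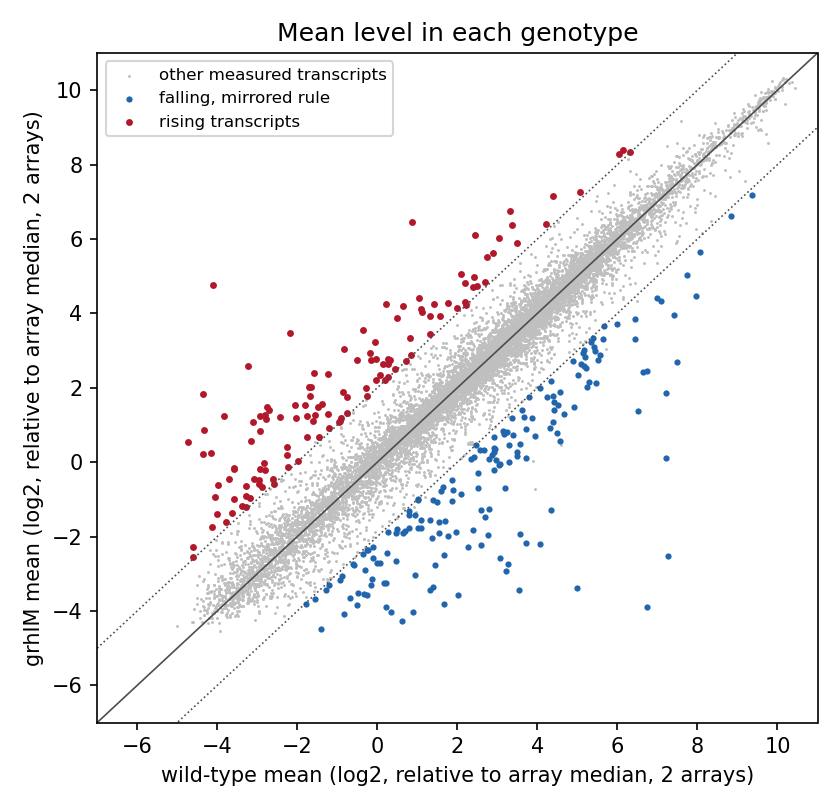
Mean level of each measured transcript in wild-type (horizontal axis) and grhIM (vertical axis), both log2 relative to the array median over 2 arrays. The 126 rising transcripts (red) have a median of -1.23 in wild-type and 1.81 in grhIM, the 172 transcripts that met the mirrored rule are blue, the solid line marks equal levels and the dotted lines a 4-fold difference.

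Summed over measured transcripts, the rising ones gave 0.739% and 0.659% of the processed signal in the grhIM pools, against 0.123% and 0.122% in the wild-type pools. The 5 brightest gave between 47.0% and 60.2% of the set's own signal on each array. A few bright transcripts thus carried much of the set's signal.

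Some of the dim transcripts were near the floor of the measurement. In 16 of the 126, both wild-type arrays were under 3 times the lowest signal accepted as above background, which held for 194 of all 12505 measured transcripts. These 16 had a median difference of 3.39, against 2.62 for the rest of the set, and 7 of them were among the 10 largest differences.

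The same probes were then read in the deposited table of the authors' own normalised values. Its scale was read as linear with the background kept, since the median difference of the rising transcripts there, 2.26, was near the 2.28 of raw median signals. The table held the probes of all 126 rising transcripts. In it, 85 transcripts still differed by at least 2. Each transcript's difference was at least 37.5% of that in processed signals, with a median of 85.7%.

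The size of this reduction followed the wild-type level. In the lowest bin of wild-type level the table gave 78.3% of the difference at the median, and in the next 3 bins 96.3%, 98.7% and 97.0%. Other measured transcripts that differed by at least 1 in either direction had medians of 77.1%, 96.6%, 99.1% and 102% in the same bins. The lowest bin alone held 496 of these, while 489 measured transcripts in all were at least 1 higher in grhIM. The others thus include transcripts that were lower in grhIM, for which wild-type is the brighter genotype. By wild-type level alone, the rising transcripts were reduced about as much as these others. For FBtr0073062 the table gave 7.11 in place of 8.87, and for FBtr0301737 it gave 2.23 in place of 2.26.

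**Figure D3:**
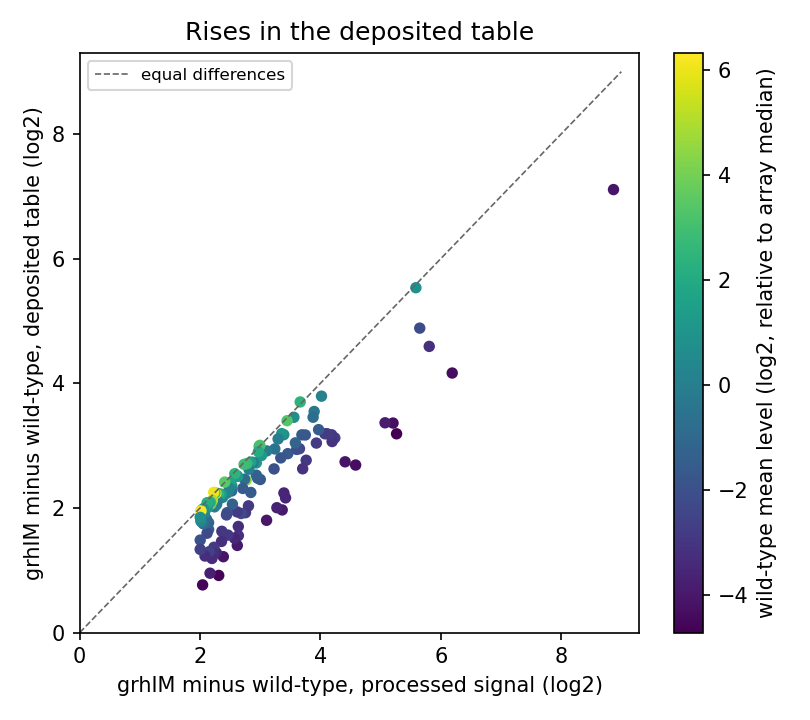
Genotype difference (grhIM minus wild-type, log2) of each of the 126 rising transcripts in the processed signals (horizontal axis) and in the deposited table (vertical axis), coloured by mean wild-type level. Dim transcripts lie farthest under the dashed line of equal differences, at a median of 78.3% of it in the lowest bin of wild-type level, and none is below 0.

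Replicate spread was larger in the wild-type pools than in the grhIM pools. The median gap between the replicates of a rising transcript was 0.12 in grhIM and 0.29 in wild-type, against 0.09 and 0.18 over all measured transcripts. This was not limited to dim transcripts, since by bin of the wild-type level the median wild-type gap of the rising ones was 0.29, 0.34, 0.29 and 0.24, and that of all measured ones 0.21, 0.18, 0.17 and 0.17. The rule asks for non-overlapping groups and so keeps out transcripts with a still wider spread.

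Wild-type replicates more than 1 apart were seen for 6 rising transcripts (4.76%, against 0.928% of all measured ones). Rank 17 read -0.82 and -2.32 in the wild-type pools, beside 2.57 and 2.23 in grhIM. For rank 47 the order was the opposite, at 2.35 and 3.75, beside 5.83 and 6.23 in grhIM. Ranks 24, 38, 51 and 94 were the others. In grhIM only ranks 1 and 2 had replicates more than 1 apart.

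The first replicate was the higher of the grhIM pair for 83 rising transcripts (65.9%), as for 55.9% of all measured ones. In wild-type the first was higher for 69 (54.8%), as for 46.1% of all. The shares of the rising transcripts exceeded those of all transcripts by a like margin in both genotypes. Spots of 1 probe on 1 array were closer than the pools, with median differences of 0.06 to 0.11 over the 65 rising transcripts whose probe had 2 spots.

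A second probe gives a further reading of the same RNA on the same arrays. For 33 rising transcripts the array held another probe of the same accession, and for 32 of them at least 1 was measured, meaning well above background on both arrays of at least 1 genotype. In all 32 a second probe was at least 1 higher in grhIM, as was so for 140 of 3625 other measured transcripts with such a probe (3.86%). The unmeasured second probe, of rank 65, was far below the array median on all 4 arrays and differed by 0.68. For 3 of the 32, ranks 7, 33 and 50, the second probe was measured through the grhIM arrays alone, where it is high. Such a choice favours a difference. In the 29 with a second probe above background on all 4 arrays, such a probe was at least 1 higher in 29, as in 122 of 3528 other transcripts (3.46%). These probes share the RNA and the arrays that chose the set, so the counts are descriptions. The 35 second probes, 4 of them measured through grhIM alone, had a median difference of 2.42, and 25 of them met the whole rule on their own. Their difference was 99.8% of the brightest probe's at the median, 18 lay between 90% and 110% of it, and 9 between 50% and 90%.

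The probes of a transcript could differ in level and still show a like difference. The second probe of rank 48 read -0.22 and -0.48 in grhIM and -3.22 and -2.96 in wild-type, and the brightest read 5.15 and 4.96 against 2.20 and 1.98. These levels were far apart, but the differences were 2.74 and 2.97.

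In 2 cases a second probe was lower in grhIM. Rank 25 had 3 probes. The brightest read 6.09 and 6.10 in grhIM and 2.51 and 2.35 in wild-type, and another gave nearly the same difference, 3.67 beside 3.66. The third read 3.16 and 3.17 in grhIM against 4.77 and 4.56 in wild-type, a difference of -1.50, with replicates that did not overlap. So 1 accession held probes that changed in opposite directions. Since the third probe was the brightest in wild-type, it stood for the transcript when either grhIM array was left out, and the difference of rank 25 was then -1.50 too. Rank 66 likewise had a second probe with a difference of 2.84, while the third had -0.36. Where these probes lie in the transcripts is not given in the files used here.

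**Figure D4:**
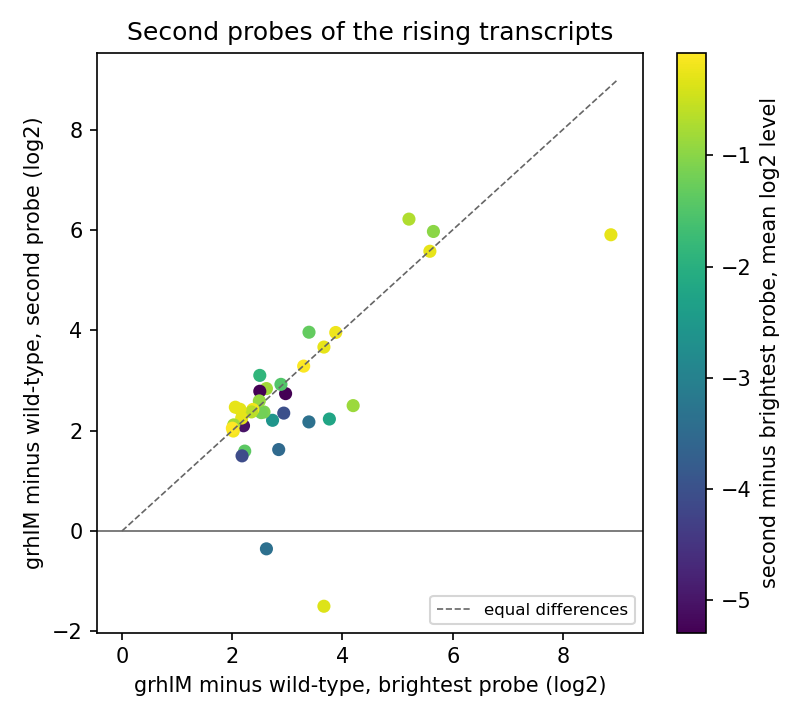
Genotype difference (grhIM minus wild-type, log2) of the brightest probe (horizontal axis) and of each of the 35 measured second probes (vertical axis) of 32 rising transcripts, coloured by how much dimmer the second probe was. Most points follow the dashed line of equal differences, and the 2 below 0 are probes of ranks 25 and 66.

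Some rising transcripts had neighbouring accession numbers, a feature that the rule did not use. Among the 126, 15 (11.9%) had another rising transcript at the very next number, in 6 runs. Counted from each member to either side, 144 measured transcripts lay next to a rising one, and 18 of these (12.5%) were rising too, where 1.01% of all measured transcripts were. At a distance of 2 to 5 numbers the share was 4.41%, at 6 to 10 it was 2.26%, at 11 to 50 it was 2.47% and at 51 to 100 it was 1.53%. Consecutive numbers can belong to 1 gene or to genes that adjoin, and the files do not say which. The probes of different accessions of 1 gene, or of near-identical genes, could share RNA, which was not tested.

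The longest run had 4 transcripts, of ranks 47, 58, 77 and 108. Their wild-type levels differed widely, with means from 0.15 to 4.39, yet all 4 differed by 2.12 to 2.98 between genotypes. Rank 58 was the brightest of them, at 7.20 and 7.10 in grhIM and 4.26 and 4.51 in wild-type. Rank 77 read 2.62 and 2.66 against 0.01 and 0.28. The second wild-type replicate was the higher for ranks 47, 58 and 77, at 3.75 against 2.35 for rank 47 and with smaller gaps for the other two, and the lower for rank 108.

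A run of 3 held ranks 42, 60 and 54, with differences of 3.11, 2.74 and 2.84. Their levels were lower with each number, from 3.02 and 2.84 in grhIM for rank 42 to 1.38 and 1.18 for rank 54. The other 4 runs had 2 transcripts each.

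Most neighbours did not share the change. The 126 measured transcripts next to a rising one that were not rising themselves had a median difference of 0.10 and ran from -3.15 to 1.95. Of these, 11 (8.73%) were at least 1 higher in grhIM, as were 3.91% of all measured transcripts, and 1 neighbour met the mirrored rule for falling transcripts.

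**Figure D5:**
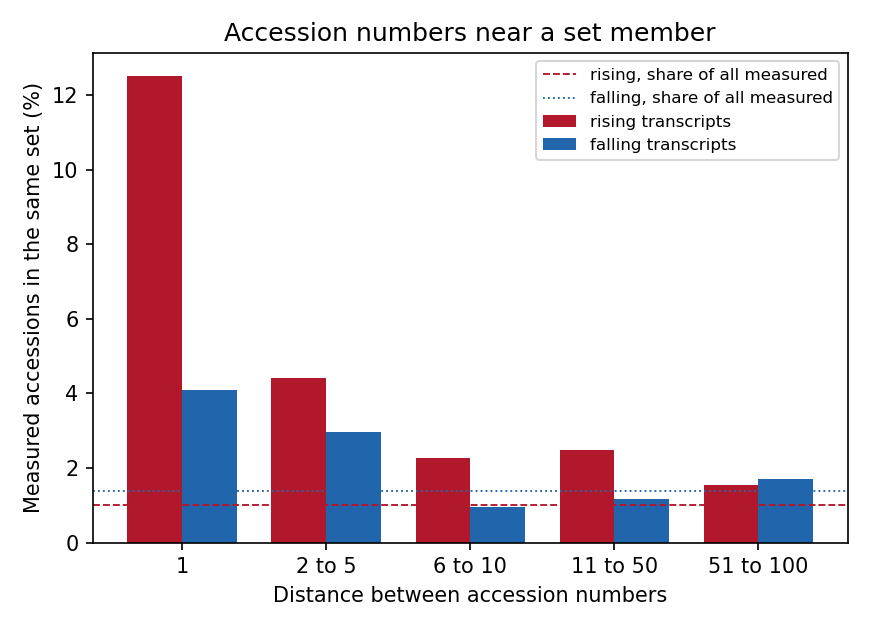
Share of measured transcripts at a given distance in accession number from a rising (red) or falling (blue) transcript that belong to the same set, in percent, with the share of each set among all measured transcripts as horizontal lines. The rising share is 12.5% at the next number and 1.53% at 51 to 100, and the falling share at the next number is 4.08%.

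Turned around, the same rule gave 172 falling transcripts (1.38% of the measured ones), so among measured transcripts strong rises were fewer than strong falls. The falling transcripts were not counted without the requirement on background or under other scalings. A change of at least 8-fold was measured for 45 of 126 rising and 76 of 172 falling transcripts, and one of at least 32-fold for 8 and 16. The median was 2.66 for the rising and -2.80 for the falling transcripts. Each set was mostly dim where it was low, as 70.6% of the rising transcripts lay in the lowest bin in wild-type and 62.8% of the falling ones in the lowest bin in grhIM. The rule favours this in both sets. Of 196 measured transcripts next to a falling one, 8 (4.08%) were falling. Whether the sets differ in any of this was not tested.

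Targets without a FlyBase transcript accession gave a like share of strong rises. Of 6624 such targets measured on all 4 arrays, 68 (1.03%) met the rule. Their median difference was 2.56, the largest was 7.94, and their median wild-type level was -2.03. None of the 68 could be named either, and some may be the same genes as rising transcripts.

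No named target met the whole rule. The RefSeq table named 361 targets on the array, of which 285 were measured on all 4 arrays, and 12 of these were at least 1 higher in grhIM. The nearest to the limit was hpRNA:CR33940, a hairpin RNA gene, with levels of 4.86 and 5.05 in grhIM and 2.89 and 3.04 in wild-type, a difference of 1.99. It was followed by atos at 1.84, the long noncoding RNA gene lncRNA:CR33942 at 1.74 and CG9672, a serine protease gene, at 1.71. All 4 were past the limit on the gap and missed the limit on the difference. Of the lists of immune, stress, protease, detoxification, cuticle and wound genes, 6 genes could be measured by name, and none met the rule. CG9672 was not on the protease list, so it is not among these 6. This says nothing about the other genes of those lists, which may be among the unnamed accessions. By its own normalisation and false discovery limit, the paper reports that most misregulated innate-immune genes were higher in grhIM embryos. It also lists many serine protease genes and several heat shock genes as higher there.

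The limits cut through a continuous range of values. The 3 rising transcripts with the smallest difference all had 2.00, and the nearest left out had 1.99, 1.98 and 1.97. The smallest gaps inside were 1.56, 1.58 and 1.60, while the transcripts that met the difference and not the gap had gaps of 1.47, 1.42 and 1.10. Another 43 measured transcripts met the gap and not the difference. The requirement on background left out 69 more transcripts that were past both limits, of which 46 were above background on neither wild-type array and 23 on 1 of them.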

How the data were processed

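Processed and raw intensity values were deposited as 4 scanner files that the authors made with Agilent Feature Extraction (version 10.7.3.1 and build dm3 per the file headers), and no intensity was scaled between arrays there. Other deposited columns are flags of 0 or 1 for spots that are well above background, saturated or outliers. A deposited table holds the authors' normalised intensity for 24684 probes.

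Spots of a probe were averaged, log2 was taken, and the median over 32162 gene probes was subtracted for each array. A probe was taken as well above background where the flag was set for 50% of its spots or more. Precision is limited by 2 arrays per genotype. No test was run, since the rule used the genotype difference. The members and the gene lists were chosen with earlier results of these data known. Names came from a RefSeq gene table, which named 8 of 14755 FlyBase transcript targets, and the rule for named genes printed at most 2 unnamed accessions. No sequences were used. Alternatives in scaling, background, filter and probe were computed with R 4.3.3, limma 3.58.1, numpy 2.4.6 and pandas 2.3.3.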

Additional observations from a re-analysis of the deposited data

How the results depend on the processing

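With 5 other scalings of the arrays, from the 75th percentile to the spike-in RNA, 102 to 126 transcripts met the rule. With normexp on the median signal, an alternative added after seeing the data that changes both the signal and the background, 81 transcripts met the rule, 65 of them among the 126, and the median difference of the 126 was 2.22. It was 2.28 with raw median signals, where 86 met the rule, and 2.26 in the deposited table. With no requirement on background, 195 transcripts met the rule. Leaving out each array in turn gave 118 to 154 transcripts, 113 to 123 of them among the 126, and a median difference of 2.63 to 2.68. In 15 of 17 alternatives all 126 stayed above 0, and without either grhIM array 125 did, rank 25 being the exception. Normexp on the mean signal was not run, because that column is not in the files used. No paired analysis was possible because the result comes from no test, the transcripts having been chosen on the genotype difference itself. With 2 arrays per genotype and signals near the floor, the folds of the dimmest transcripts are the least certain.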
